A study of Rattus norvegicus with 44 samples.

Results

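The cytokine genes Il1b, Il6 and Tnf and the mediator enzyme genes Ptgs2 and Nos2 were followed in rat choroid plexus and trunk blood. They were found through the accession or symbol that the array annotation gives each probe, which gave 5 genes with 1 probe each, out of 10412 named genes, and each probe had a value on all 44 arrays. The animals were male Sprague-Dawley rats of the NCTR strain, 3 months old. They received saline, environmentally induced hyperthermia (EIH) or amphetamine at toxic exposure (AMPH). The 20 choroid plexus arrays fell into 5 groups of 4: saline, EIH and AMPH at 3 h, and EIH and AMPH at 1 day. Each held tissue of 3 rats pooled. The 24 blood arrays fell into 6 groups of 4 (saline, EIH and AMPH at 3 h and at 1 day), with 1 rat per array. By the source and treatment labels, no choroid plexus saline group at 1 day was among the samples. The 1 day choroid plexus groups were therefore set against 3 h saline, each other or the same treatment at 3 h.

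Interleukin 1 beta, interleukin 6 and tumor necrosis factor are secreted proteins that start and carry acute inflammation and act on the brain to raise body temperature. Ptgs2 encodes cyclooxygenase 2, the inducible enzyme that turns arachidonic acid into the precursor of prostaglandins, and Nos2 encodes inducible nitric oxide synthase, which makes nitric oxide from arginine. In many cells NF-kappaB and related factors drive transcription of these genes after microbial, cytokine or stress signals. The choroid plexus is an epithelial and vascular tissue that makes cerebrospinal fluid and forms a barrier between the blood and that fluid.

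Levels are log2 of the deposited intensity of 1-colour (Cy3) Agilent arrays, so a difference of 1 is a doubling of signal, and they are compared within a gene only, since probes differ in brightness. Of the choroid plexus epithelium markers tested between the 3 h saline groups, 8 of 9 were higher in choroid plexus, and all 5 erythroid markers were lower. The tissue tag of the blood samples names a brain region besides blood, while their titles and source labels say blood. Some labels conflict: the choroid plexus EIH 1 day pools say control in their titles and EIH in their source and treatment labels. The latter were used, and the absence of a 1 day saline group rests on them. Of the rat numbers in these titles, 3 are EIH rats in the blood titles. However, 1 number of pool 3 is also listed in AMPH 3 h pool 2, and 1 of pool 4 in EIH 3 h pool 2. Likewise, saline 3 h pool 4 and AMPH 1 day pool 2 list 1 number in common. Between the tissues, the first saline blood rat at 1 day is listed in saline 3 h pool 3. The third EIH blood rat at 1 day is listed in EIH 3 h pool 2. Such numbers conflict with the group labels. Median array intensity was 139.0 to 145.8 on the 24 arrays at 3 h and 164.8 to 171.0 on the 20 arrays at 1 day, so a choroid plexus difference between the times and a difference in normalization cannot be told apart. The second choroid plexus AMPH 1 day pool stood apart: its median correlation with its group was 0.883 over 6452 genes, against 0.971 for the other pools of the group. The fourth choroid plexus saline pool had a median correlation of 0.946, against 0.971 to 0.972 in the other pools of its group. It was the highest saline pool for Il6, Ptgs2 and Nos2 and the lowest for Il1b and Tnf. In blood the fourth saline rat at 1 day had a median correlation of 0.869 with its group. Each blood array has its own rat. Of the 20 choroid plexus pools, 7 list a rat number that another pool lists: within the EIH 1 day group pools 2 and 3 share 1 and pools 3 and 4 share 1, and the other shared numbers join pools of different groups. The pools of that group are therefore not independent by their labels, and p-values measure the spread between arrays.

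In blood at 3 h, Il1b, Ptgs2 and Nos2 rose after EIH and after AMPH, while Il6 and Tnf did not pass the test. After EIH 3 of the 5 genes were called, against 12.6% of the 9893 genes tested, and 3 of 5 had ranges that did not overlap with saline, against 25.1% of genes. After AMPH 3 of 5 were called, against 8.68% of 9863 genes, and 3 of 5 had ranges apart, against 21.4%. A gene was called when the adjusted p of limma's moderated test, with Benjamini-Hochberg adjustment over all genes tested, was under 0.05. Both treatments were set against the same 4 saline rats.

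Cell-type markers moved with these blood results. Of the neutrophil markers 5 of 9 rose after EIH (median difference 1.35) and 5 of 9 after AMPH (1.63). Of the T cell markers 6 of 6 fell after EIH (-2.28) and 6 of 6 after AMPH (-2.09). Of the monocyte and macrophage markers 4 of 9 rose after EIH, and 2 rose and 1 fell of 8 after AMPH. Summed intensity of the 8 neutrophil markers with a value on every blood array was 22213 to 35875 in the saline rats, 47778 to 93359 after EIH and 72889 to 118769 after AMPH, with every treated rat above every saline rat. Summed intensity of 6 T cell markers was 20373 to 25906, 4610 to 12453 and 5975 to 13099, with every treated rat below every saline rat. That of 6 monocyte and macrophage markers was 32043 to 38957, 50043 to 81014 and 49044 to 69982. The part of these shifts in the rises of Il1b, Ptgs2 and Nos2 was not tested, and in whole blood or whole tissue a change in the number of cells of a type and a change in RNA per cell cannot be told apart.

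In choroid plexus at 3 h the largest differences among the 5 genes were those of Il6, Il1b and Ptgs2, but none was called. The choroid plexus comparisons with saline share the same 4 pools. After EIH 0 of 5 were called, against 0.341% of 10261 genes, and 2 of 5 (Il1b and Il6) had ranges apart from saline, against 16.1% of genes. At an unadjusted p under 0.05, 3 of 5 and 1327 genes in all (12.9%) passed. After AMPH 0 of 5 were called, against 0.156% of 10263 genes, with 2 of 5 (Il1b and Il6) apart from saline, against 12.8%. At an unadjusted p under 0.05, 3 of 5 and 1536 genes (15%) passed. With limma's array weights Il1b, Il6 and Ptgs2 passed after EIH (adjusted p = 0.00604, 0.0148 and 0.0202) and after AMPH (0.00587, 0.00426 and 0.0232), while all genes called went from 35 to 967 and from 16 to 1214. Without the AMPH 1 day pool that stood apart, which enters here only through the shared spread, Il1b passed after EIH (adjusted p = 0.0362), and Il1b (0.0314) and Il6 (0.0379) passed after AMPH. Of the neutrophil markers 0 of 9 were called after EIH and 0 of 8 after AMPH. Their summed intensity, over the 7 with a value on every choroid plexus array, was 233 to 489 in saline, 257 to 457 after EIH and 519 to 810 after AMPH, so the AMPH pools lay above the saline pools and the EIH pools overlapped with them. Monocyte and macrophage sums were 8574 to 9883, 6387 to 9386 and 6767 to 10323. The part of these cells in the 3 h values was not tested.

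**Figure D1:**
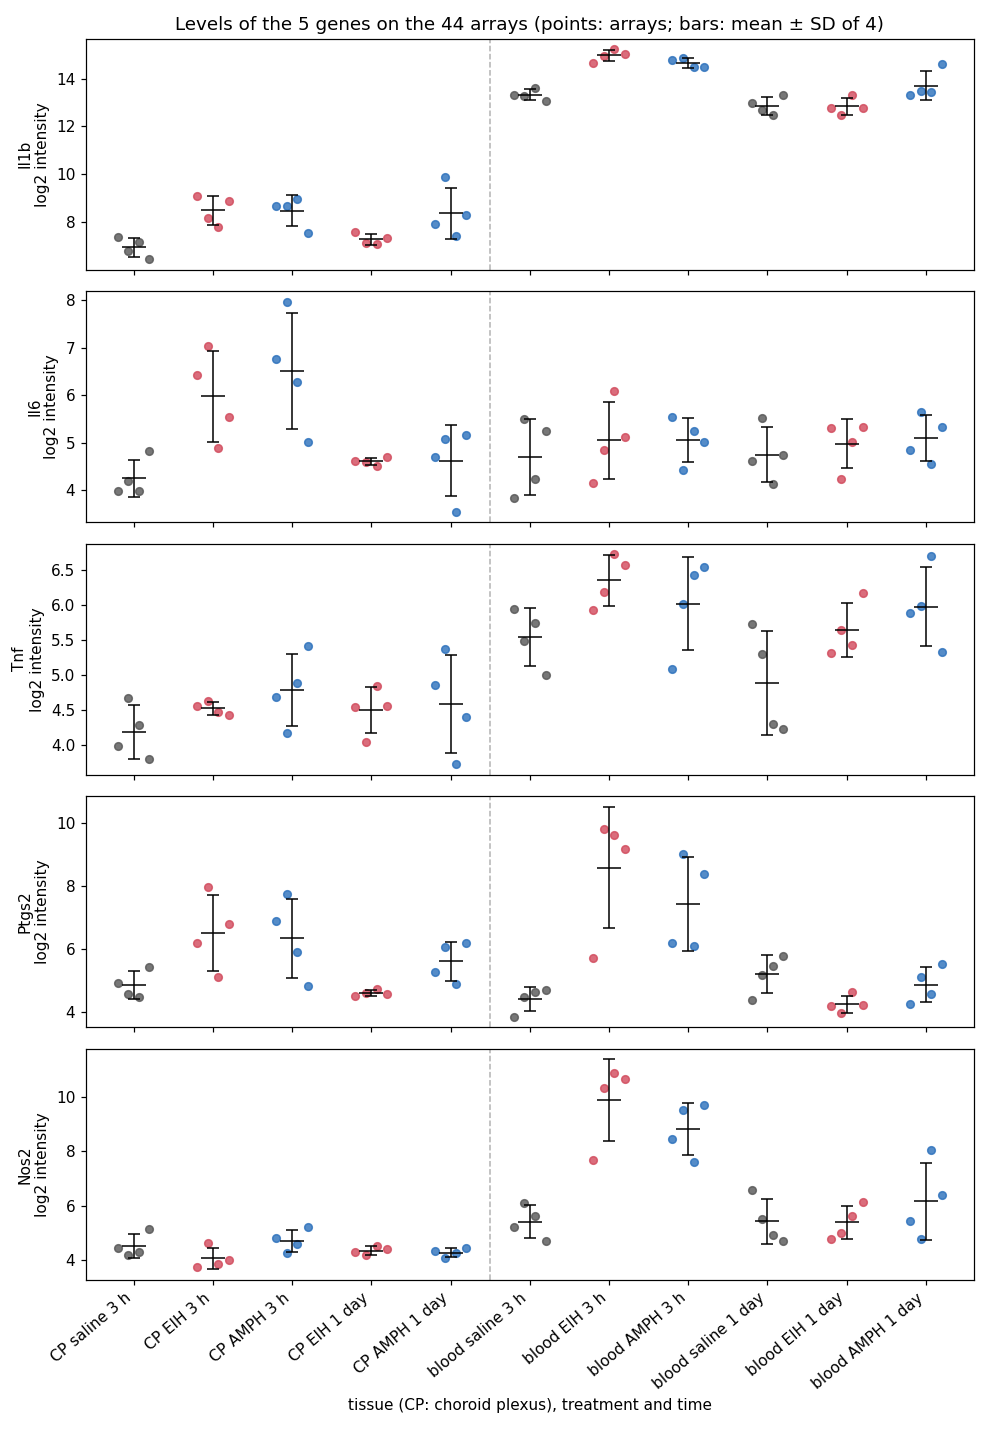
Log2 intensity of the 5 genes on each of the 44 arrays (points) by tissue, treatment and time, with mean and SD of the 4 arrays of a group (black bars). In blood the EIH and AMPH rats at 3 h lie above the saline rats for Il1b, Ptgs2 and Nos2, and in choroid plexus the treated pools at 3 h lie above the saline pools for Il1b and Il6.

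**Figure D2:**
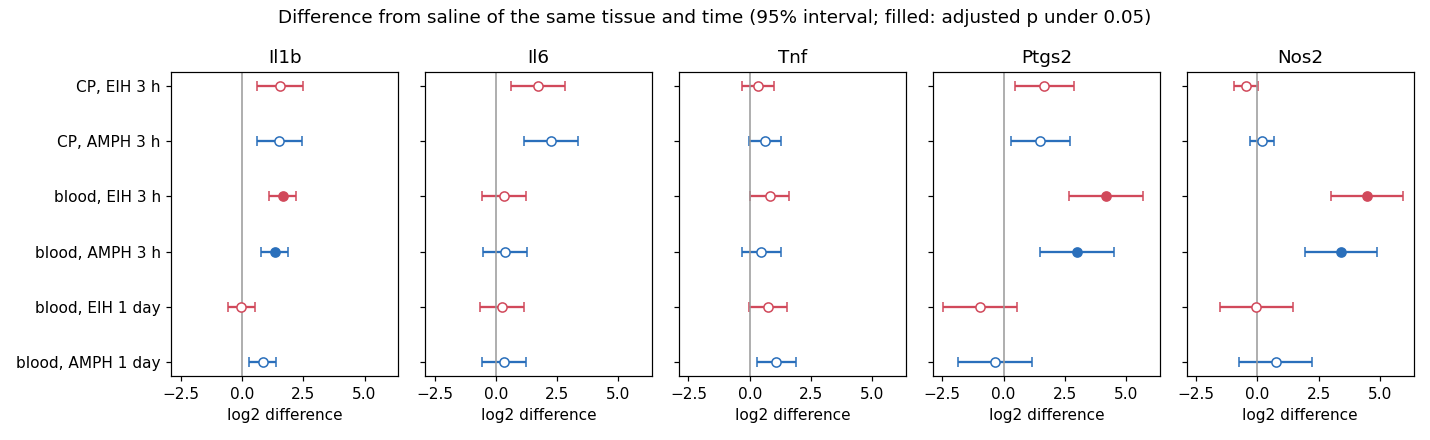
Log2 difference from saline of the same tissue and time with its 95% interval, by gene, for EIH (red) and AMPH (blue). Filled points had an adjusted p under 0.05; these are Il1b, Ptgs2 and Nos2 in blood at 3 h after both treatments.

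Il1b (NCBI Gene 24494) encodes a cytokine made as a precursor that is cut before release. In blood at 3 h the saline rats read 13.32, 13.29, 13.61 and 13.05, the EIH rats 14.65, 14.96, 15.23 and 15.04, and the AMPH rats 14.76, 14.87, 14.50 and 14.47. Every treated rat was above every saline rat. Il1b rose by 1.65 ± 0.26 (SE, n = 4 against 4) after EIH (3.14-fold, 95% interval 2.15 to 4.59, limma adjusted p = 0.000345). It rose by 1.33 ± 0.26 after AMPH (2.52-fold, 95% interval 1.73 to 3.68, limma adjusted p = 0.00419). These levels are near the top of the scale. The smallest gap to the highest value of an array was 0.77 after EIH and 1.13 after AMPH. Whether the top of the scale limits the folds was not tested.

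In choroid plexus the 3 h saline pools read 7.37, 6.80, 7.16 and 6.45 for Il1b, the EIH pools 9.11, 8.18, 7.79 and 8.89, and the AMPH pools 8.68, 8.69, 8.98 and 7.53. All treated pools were above all saline pools. The difference was 1.55 ± 0.44 for EIH (95% interval 0.61 to 2.48, limma adjusted p = 0.143) and 1.52 ± 0.44 for AMPH (0.59 to 2.46, limma adjusted p = 0.130). Il1b geometric mean intensity at 3 h (saline, EIH, AMPH) was 123.4, 360.4 and 355.0, and in blood 10202.4, 32073.3 and 25723.5. Platelet marker sums in the same order were 898 to 1112, 770 to 1055 and 787 to 1025, against 95356 to 108979 in blood saline. Erythroid sums in these pools were 2287 to 3171, 2413 to 3089 and 1766 to 3501. The part of residual blood in the Il1b values was not tested. At 1 day the EIH pools read 7.60, 7.13, 7.09 and 7.33 and overlapped with 3 h saline. The AMPH pools at 1 day read 7.92, 9.89, 7.42 and 8.28, all above 3 h saline, and the highest is the pool that stood apart. The difference of AMPH at 1 day from 3 h saline was 1.43 ± 0.44 (limma adjusted p = 0.166), and 0.93 ± 0.36 without that pool (adjusted p = 0.232). In that group summed intensity was 573 to 5136 for the neutrophil markers, 8181 to 42310 for the monocyte and macrophage markers and 99522 to 243156 for the 10 epithelium markers. In 3 h saline these were 233 to 489, 8574 to 9883 and 233007 to 244277. The epithelium sums are lower bounds. Ttr was at the highest value of the array on all pools of both groups. Sostdc1 was so on all 3 h saline pools and on 3 of 4 AMPH 1 day pools. Erythroid, platelet, and stroma and meninges sums in the AMPH 1 day group were 2378 to 17718, 789 to 14146 and 11530 to 134099. In 3 h saline they were 2287 to 3171, 898 to 1112 and 10798 to 15426. The part of all these cells in the Il1b values was not tested.

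The 250 bases before the Il1b start are shown to set beside those of Il6 and Ptgs2, since these 3 genes had the largest differences in choroid plexus. The window is chr3:137036582-137036831 on the minus strand (RefSeq, build GRCr8), and capitals mark a TATA match 60 to 55 bases before the start, which 12.9% of 33469 rat promoters of this length hold.
Il1b: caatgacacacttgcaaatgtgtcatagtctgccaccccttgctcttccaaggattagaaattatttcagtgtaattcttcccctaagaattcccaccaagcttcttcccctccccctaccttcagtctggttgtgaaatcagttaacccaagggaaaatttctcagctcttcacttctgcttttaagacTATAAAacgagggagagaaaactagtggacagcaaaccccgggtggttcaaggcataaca
The motifs searched on both strands were TATAAA (the TATA box), TGACGTCA (CRE), TTGCNNAA (C/EBP), GAANNTTC (an inverted pair of the short units that heat shock elements repeat), AP-1 (TGA, then any base, then TCA) and the kappaB consensus. AP-1 is held by 6.3% of promoters. A match describes letters, not a bound site.

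Il6 (NCBI Gene 24498), a cytokine that drives fever and the acute phase response, had its highest levels in treated choroid plexus. At 3 h the saline pools read 3.98, 4.20, 3.99 and 4.82, the EIH pools 6.43, 7.04, 4.88 and 5.54, and the AMPH pools 6.75, 7.96, 6.28 and 5.02. All treated pools were above all saline pools. The difference was 1.72 ± 0.53 after EIH (95% interval 0.61 to 2.84, limma adjusted p = 0.173) and 2.25 ± 0.53 after AMPH (1.14 to 3.37, limma adjusted p = 0.0787). Of the 4 saline pools, 3 lay below the 10th percentile of their array, which was 4.26 to 4.49 in choroid plexus, so these levels are near the bottom of the scale. At 1 day the EIH pools read 4.62, 4.60, 4.52 and 4.71 and the AMPH pools 4.70, 5.08, 3.55 and 5.17, and both overlapped with 3 h saline.

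In blood the Il6 groups overlapped. At 3 h the saline rats read 3.83, 5.49, 4.24 and 5.25, the EIH rats 4.15, 4.84, 6.09 and 5.13, and the AMPH rats 5.54, 4.43, 5.24 and 5.02. The difference was 0.35 ± 0.43 after EIH (95% interval -0.55 to 1.25) and 0.36 ± 0.43 after AMPH (-0.54 to 1.25). The 12 rats at 1 day lay between 4.13 and 5.65.

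The Il6 window, chr4:5894576-5894825 on the minus strand (RefSeq, GRCr8), is the only one of the 4 windows with a CRE or a kappaB consensus match. Capitals mark, in order, the CRE (1.6% of promoters) 162 to 155 bases before the start, a C/EBP match on the other strand (9.2%) at 152 to 145, and the kappaB consensus (6.3%) at 68 to 59.
Il6: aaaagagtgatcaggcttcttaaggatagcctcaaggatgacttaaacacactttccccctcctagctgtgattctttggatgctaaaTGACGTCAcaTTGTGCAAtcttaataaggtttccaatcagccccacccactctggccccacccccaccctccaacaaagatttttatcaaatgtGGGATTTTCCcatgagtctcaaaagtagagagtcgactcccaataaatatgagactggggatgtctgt

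Tnf (NCBI Gene 24835), an early cytokine of the acute response, was called after neither treatment in either tissue. In blood at 3 h the saline rats read 5.95, 5.49, 5.74 and 4.99, the EIH rats 5.93, 6.19, 6.73 and 6.58, and the AMPH rats 5.09, 6.02, 6.43 and 6.55. The groups overlapped, with the lowest EIH rat just below the highest saline rat. The difference was 0.81 ± 0.38 after EIH (95% interval 0.02 to 1.60, limma adjusted p = 0.181) and 0.48 ± 0.38 after AMPH (-0.31 to 1.26, limma adjusted p = 0.513). The 20 choroid plexus pools lay between 3.73 and 5.41, with 6 of 20 below the 10th percentile of their array. There the 3 h difference was 0.34 ± 0.31 after EIH and 0.60 ± 0.31 after AMPH. The Tnf promoter window holds a TATA match 46 to 41 bases before the start and no other motif of the search.

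Ptgs2 (NCBI Gene 29527) rose in blood at 3 h. The saline rats read 3.84, 4.48, 4.64 and 4.68, the EIH rats 5.71, 9.82, 9.63 and 9.16, and the AMPH rats 6.19, 9.03, 6.10 and 8.39. All treated rats were above all saline rats, and the treated groups were uneven, with 1 EIH rat far below the other 3 and the AMPH rats in a lower and a higher pair. The saline rats lay near the bottom of the scale (between the 5.7 and 13 percentile of genes on their arrays), and no measure of signal over background was used here, so the folds rest on a baseline not shown to be above background. Ptgs2 rose by 4.17 ± 0.73 after EIH (18.0-fold, 95% interval 6.30 to 51.3, limma adjusted p = 0.000778) and by 3.01 ± 0.72 after AMPH (8.08-fold, 95% interval 2.83 to 23.0, limma adjusted p = 0.0135). Without the low EIH rat the EIH difference was 5.12. The AMPH call was lost without the second AMPH rat (2.48, adjusted p = 0.0563) or the fourth (2.69, adjusted p = 0.0526).

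In choroid plexus at 3 h the saline pools read 4.91, 4.55, 4.47 and 5.43 for Ptgs2, the EIH pools 6.18, 7.96, 5.09 and 6.77, and the AMPH pools 6.90, 7.73, 5.89 and 4.82. The highest treated pools were far above saline, and the lowest overlapped with it. The difference was 1.66 ± 0.57 after EIH (95% interval 0.46 to 2.86, limma adjusted p = 0.219) and 1.50 ± 0.57 after AMPH (0.29 to 2.70, limma adjusted p = 0.227). The EIH pool lowest for Ptgs2 was also lowest for Il1b and Il6, and the same held for the AMPH pool lowest for Ptgs2. At 1 day the EIH pools read 4.50, 4.60, 4.71 and 4.56 and the AMPH pools 5.26, 6.07, 4.87 and 6.19.

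The Ptgs2 window, chr13:64713813-64714062 on the plus strand (RefSeq, GRCr8), holds the only match to the paired heat shock units among the 4 windows. Capitals mark, in order, that match (7.2% of promoters) 197 to 190 bases before the start and a C/EBP match on the other strand (9.2%) at 140 to 133.
Ptgs2: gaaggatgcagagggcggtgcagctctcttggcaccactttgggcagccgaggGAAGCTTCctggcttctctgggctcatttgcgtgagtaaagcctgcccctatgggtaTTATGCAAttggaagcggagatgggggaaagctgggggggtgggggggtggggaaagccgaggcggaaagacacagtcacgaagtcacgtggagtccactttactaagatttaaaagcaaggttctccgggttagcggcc
Among the 4 windows, those of Il6 and Ptgs2 hold a C/EBP match.

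Nos2 (NCBI Gene 24599) rose in blood at 3 h. The saline rats read 5.24, 6.11, 5.63 and 4.69, the EIH rats 7.68, 10.34, 10.88 and 10.66, and the AMPH rats 8.46, 9.51, 7.62 and 9.70. All treated rats were above all saline rats, and the EIH rat lowest for Ptgs2 was lowest for Nos2 too, as for the other 3 genes. Nos2 rose by 4.47 ± 0.71 after EIH (22.2-fold, 95% interval 7.96 to 61.8, limma adjusted p = 0.000347) and by 3.40 ± 0.71 after AMPH (10.6-fold, 95% interval 3.80 to 29.5, limma adjusted p = 0.00605). Without that EIH rat the EIH difference was 5.21. The saline rats lay between the 13.1 and 32.7 percentile of genes on their arrays. As for Ptgs2, the folds rest on a baseline not shown to be above background. The 20 choroid plexus pools lay between 3.77 and 5.22, with 11 of 20 below the 10th percentile of their array. There the 3 h difference was -0.46 ± 0.23 after EIH (95% interval -0.95 to 0.04) and 0.20 ± 0.23 after AMPH (-0.29 to 0.70).

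In the order of group means, Il1b ran from blood EIH at 3 h (14.97 ± 0.24, SD, n = 4) through the other blood groups to choroid plexus saline (6.95 ± 0.40). The neighbours whose ranges did not overlap were the lowest blood group, EIH at 1 day (12.84 ± 0.35), and the highest choroid plexus group, EIH at 3 h (8.49 ± 0.61). Il6 ran from choroid plexus AMPH at 3 h (6.50 ± 1.22) and EIH at 3 h (5.97 ± 0.95) to choroid plexus saline (4.25 ± 0.39). Tnf ran from blood EIH at 3 h (6.36 ± 0.36) to choroid plexus saline (4.19 ± 0.38). Ptgs2 ran from blood EIH at 3 h (8.58 ± 1.93) and AMPH at 3 h (7.43 ± 1.51) to blood EIH at 1 day (4.24 ± 0.27). Nos2 ran from blood EIH at 3 h (9.89 ± 1.49) and AMPH at 3 h (8.82 ± 0.97) to choroid plexus EIH at 3 h (4.07 ± 0.39). All neighbouring groups in the orders of these last 4 genes overlapped.

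AMPH and EIH were compared directly at 3 h. In blood 0 of 5 genes were called, against 0.0397% of genes. An unadjusted p under 0.05 was reached by 0 of 5 and 960 genes (9.54%). The AMPH minus EIH difference was -1.15 ± 0.73 for Ptgs2 (95% interval -2.67 to 0.36). It was -1.07 ± 0.71 for Nos2 (-2.55 to 0.41) and -0.32 ± 0.26 for Il1b (-0.87 to 0.23). The intervals of both enzymes hold differences of over 1 and of 0. In choroid plexus 0 of 5 were called, against 0.00973% of genes, while 1 of 5 and 291 genes (2.83%) had an unadjusted p under 0.05. There the difference was 0.66 ± 0.23 for Nos2 (unadjusted p = 0.0121, limma adjusted p = 1.00), at levels near the bottom of the scale. It was 0.53 ± 0.53 for Il6 (-0.59 to 1.65), -0.16 ± 0.57 for Ptgs2 (-1.37 to 1.04) and -0.02 ± 0.44 for Il1b (-0.95 to 0.91).

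At 1 day blood held none of the 3 h calls after EIH. Against 1 day saline 0 of 5 genes were called, against 0.082% of genes. An unadjusted p under 0.05 was reached by 0 of 5 and 1008 genes (10.3%). Ptgs2 read 4.38, 5.16, 5.44 and 5.78 in the saline rats and 4.17, 3.97, 4.61 and 4.22 in the EIH rats. Nos2 read 6.57, 5.53, 4.92 and 4.71 in the saline rats and 4.80, 4.99, 5.64 and 6.14 in the EIH rats. Il1b read 12.99, 12.67, 12.47 and 13.31 in the saline rats and 12.75, 12.49, 13.33 and 12.78 in the EIH rats. All 3 genes overlapped between these groups. The change of the EIH effect from 3 h to 1 day was tested, and 3 of 5 genes were called, against 9.06% of genes. The effect fell by 1.68 ± 0.37 for Il1b (limma adjusted p = 0.0109), by 5.12 ± 1.02 for Ptgs2 (limma adjusted p = 0.00728) and by 4.51 ± 1.00 for Nos2 (limma adjusted p = 0.0116). Without the fourth saline rat at 1 day, which stood apart, these were -1.53, -4.92 and -4.75 (adjusted p = 0.0191, 0.0131 and 0.0133). For Il6 and Tnf the effect differed by -0.12 ± 0.61 and -0.06 ± 0.53.

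After AMPH at 1 day 0 of 5 genes were called in blood, against 2.08% of genes. The unadjusted p was under 0.05 for 2 of 5 and 1750 genes (17.9%). Il1b read 13.32, 13.47, 13.45 and 14.60 in the AMPH rats, all above the 1 day saline rats, which held for 1 of 5 genes against 11.8% of genes. The difference was 0.85 ± 0.26 (limma adjusted p = 0.0881), and 0.55 ± 0.23 without the highest rat (adjusted p = 0.277). Without the saline rat that stood apart it was 1.00 ± 0.27 (adjusted p = 0.0796). It passed with an intensity trend and robust spread in limma (adjusted p = 0.0353). Tnf read 5.74, 5.30, 4.31 and 4.23 in the saline rats and 5.89, 5.99, 6.71 and 5.33 in the AMPH rats, with a difference of 1.09 ± 0.38 (limma adjusted p = 0.131) that passed without the first saline rat (adjusted p = 0.0475) and was 0.87 ± 0.39 without the fourth (adjusted p = 0.300). Of the AMPH rats at 1 day, 1 had Nos2 at 8.05, and the group read 5.45, 4.79, 8.05 and 6.41. Summed neutrophil marker intensity was 27494 to 74593 in these rats and 7627 to 29673 in 1 day saline. Monocyte and macrophage sums were 47406 to 69224 and 25972 to 37456, and T cell sums 8800 to 17313 and 20428 to 27807. The neutrophil sums overlapped between the groups, and the others did not. The part of these cells in the values was not tested.

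The change of the AMPH effect from 3 h to 1 day in blood gave 0 of 5 calls, against 0.379% of genes. The unadjusted p was under 0.05 for 2 of 5 and 1308 genes (13.8%). Ptgs2 differed by -3.35 ± 1.02 (adjusted p = 0.155) and passed without the low EIH 3 h rat, which enters only through the shared spread (adjusted p = 0.0471). Nos2 differed by -2.67 ± 1.00 (adjusted p = 0.252). AMPH against EIH at 1 day gave 0 of 5 calls, against 0% of genes. Here 1 of 5 and 1162 genes (11.8%) had an unadjusted p under 0.05. The largest of these differences was that of Il1b, 0.87 ± 0.26 (adjusted p = 0.183).

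In choroid plexus the 1 day comparisons called none of the 5 genes. The median difference over all genes was 0.17 for EIH and 0.11 for AMPH at 1 day against 3 h saline. EIH at 1 day against 3 h saline called 0% of genes. An unadjusted p under 0.05 was reached by 0 of 5 and 1265 genes (12.3%). AMPH at 1 day against 3 h saline called 0.0294%, with 1 of 5 and 1724 genes (16.9%) at an unadjusted p under 0.05. Il1b, 1 of 5, had ranges apart in that comparison, against 8.75% of genes. AMPH against EIH at 1 day called 0%, with 1 of 5 and 556 genes (5.45%) at an unadjusted p under 0.05. Ptgs2, 1 of 5, had ranges apart there, against 3.34% of genes, with a difference of 1.01 ± 0.57 (adjusted p = 0.756).

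EIH at 1 day against EIH at 3 h in choroid plexus called 0% of genes. The unadjusted p was under 0.05 for 3 of 5 and 1426 genes (13.9%). Il1b, Il6 and Ptgs2, 3 of 5, had ranges apart, all lower at 1 day, against 18.8% of genes. The EIH 1 day pools lay between the 10.9 and 12.9 percentile of genes on their arrays for Il6. For Ptgs2 they lay between the 10.7 and 13.1 percentile, also near the bottom of the scale. The differences were -1.21 ± 0.44 for Il1b, -1.36 ± 0.53 for Il6 and -1.91 ± 0.57 for Ptgs2 (adjusted p = 0.239, 0.260 and 0.163), and all 3 passed with array weights, where all genes called went from 0 to 1992. The EIH 1 day pools share rats, and a rat number of EIH 1 day pool 4 is also listed in EIH 3 h pool 2. Without the third EIH 1 day pool, which leaves no shared number within that group, the differences were -1.14, -1.33 and -1.95 (adjusted p = 0.436, 0.445 and 0.356). AMPH at 1 day against AMPH at 3 h called 0.00981% of genes, while 1 of 5 and 1487 genes (14.6%) had an unadjusted p under 0.05. Il6 differed by -1.88 ± 0.53 (adjusted p = 0.225) there, and Il1b by -0.09 ± 0.44.

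Between the 3 h saline groups of the tissues 2 of 5 genes were called, against 56.2% of genes, and 2 of 5 had ranges apart, against 56.6%. Il1b differed by -6.37 ± 0.23, choroid plexus minus blood (blood higher 82.7-fold, 95% interval 57.1 to 120, limma adjusted p = 3.75e-07). Tnf differed by -1.36 ± 0.27 (blood higher 2.57-fold, 95% interval 1.66 to 3.96, limma adjusted p = 0.00290). Nos2 differed by -0.90 ± 0.34 (adjusted p = 0.0568), Il6 by -0.45 ± 0.40 and Ptgs2 by 0.43 ± 0.28, none of them called. Nos2 passed with quantile normalization (adjusted p = 0.0455), with array weights (0.00394), without the fourth choroid plexus saline pool, which shares a rat number (0.0252), and without the fourth blood saline rat (0.0177). Of the 24 blood rats, 17 were also in a choroid plexus pool.

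The treatment effect differed between the tissues for Nos2. For EIH at 3 h 1 of 5 genes was called, against 6.13% of genes, and the choroid plexus effect minus the blood effect of Nos2 was -4.93 ± 0.79 (limma adjusted p = 0.000215). For AMPH at 3 h 1 of 5 was called, against 3.15% of genes, with Nos2 at -3.20 ± 0.79 (limma adjusted p = 0.0196). The AMPH call was lost without the fourth AMPH blood rat (adjusted p = 0.0509) and without the pools that share a rat (adjusted p = 0.106). Ptgs2 differed by -2.51 ± 0.95 for EIH (adjusted p = 0.111), and by -3.46 without the low EIH blood rat (adjusted p = 0.00654). Il6 differed the other way, by 1.38 ± 0.69 for EIH (adjusted p = 0.256) and 1.90 ± 0.69 for AMPH (adjusted p = 0.121). Il6 passed for AMPH with array weights (adjusted p = 0.0365) or without the fourth choroid plexus AMPH pool (adjusted p = 0.0388).

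Other genes of these pathways were taken from 7 lists of 98 genes, of which 91 were measured. In blood at 3 h 19 of 90 tested rose and 2 fell after EIH (23.3% called, against 12.6% of all genes, 557 higher and 693 lower; median difference 0.53 against 0.08). After AMPH 14 of 90 rose and 0 fell (15.6%, against 8.68% of all genes, 501 higher and 355 lower; median 0.35 against 0.01). These shares were not tested against each other. By list, the share called in blood ran from 12.5% (prostaglandin) to 40% (TNF) after EIH and from 6.25% (prostaglandin) to 30% (TNF) after AMPH, and those of the prostaglandin list after both treatments and of the NF-kappaB list after AMPH (9.09%) were near or below the share of all genes. In choroid plexus at 3 h 0 of 90 were called after EIH (0.341% of all genes; median 0.25 against 0.015) and 0 of 91 after AMPH (0.156% of all genes; 0.20 against 0.03).

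In the interleukin 1 list, 3 genes rose and 1 fell of 17 in blood after EIH. Il1rn, the antagonist that blocks the interleukin 1 receptor, rose by 2.04 ± 0.25, the receptor accessory chain Il1rap by 2.18 ± 0.49, and Nlrp3, a sensor upstream of cleavage of the Il1b protein, by 1.24 ± 0.34. Casp1, the protease that does the cutting, fell by 0.50 ± 0.15. After AMPH 3 of 17 rose, Il1rn by 2.04 ± 0.25, Il1rap by 2.19 ± 0.49 and Nlrp3 by 1.36 ± 0.34. In choroid plexus Il1rn differed by 1.51 ± 0.38 after EIH (adjusted p = 0.108) and 1.66 ± 0.38 after AMPH (adjusted p = 0.0748). The decoy receptor Il1r2 differed there by 2.58 ± 0.68 (adjusted p = 0.118) and 2.63 ± 0.68 (adjusted p = 0.0944), and in blood by 2.80 ± 1.18 and 1.31 ± 1.17. The signalling receptor Il1r1 differed by 0.19 ± 0.22 and 0.00 ± 0.22 in choroid plexus and by 0.67 ± 0.46 and 0.78 ± 0.46 in blood. Il1a, the gene of the other classic interleukin 1, differed by 0.65 ± 0.94 and 0.55 ± 0.94 in choroid plexus and by -0.19 ± 0.95 and -0.44 ± 1.01 in blood.

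In the interleukin 6 family 3 of 15 genes rose in blood after EIH: the feedback inhibitor Socs3 by 2.24 ± 0.61, the related cytokine Osm by 2.03 ± 0.46, and Stat3, the transcription factor that the receptor activates, by 1.93 ± 0.29. After AMPH 2 of 15 rose, Osm by 1.93 ± 0.46 and Stat3 by 1.65 ± 0.29, and Socs3 differed by 1.50 ± 0.61 (adjusted p = 0.142). In choroid plexus the shared receptor chain Il6st differed by 0.59 ± 0.19 after EIH (adjusted p = 0.192) and 0.92 ± 0.19 after AMPH (adjusted p = 0.0571), against -0.15 ± 0.66 and 0.03 ± 0.66 in blood. The ligand-binding chain Il6r differed by 0.97 ± 0.37 and 0.45 ± 0.37 in choroid plexus and by 0.41 ± 0.21 and 0.27 ± 0.21 in blood. Socs3 and Osm differed by 0.32 ± 0.45 and -0.70 ± 0.84 after EIH in choroid plexus, with no call.

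In the TNF list 3 of 10 genes rose and 1 fell in blood after EIH. Both receptor genes rose, Tnfrsf1a by 1.64 ± 0.22 and Tnfrsf1b by 1.09 ± 0.22, while their ligand Tnf was not called. Birc3, an inhibitor of cell death, rose by 0.76 ± 0.21, and the receptor adaptor Tradd fell by 0.80 ± 0.19. After AMPH 3 of 10 rose, Tnfrsf1a by 1.46 ± 0.22, Tnfrsf1b by 1.36 ± 0.22 and Birc3 by 0.81 ± 0.21. In choroid plexus the receptor genes differed by 0.62 ± 0.21 and 0.79 ± 0.32 after EIH and by 0.49 ± 0.21 and 0.83 ± 0.32 after AMPH, with no call.

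In the NF-kappaB list 2 of 11 genes rose in blood after EIH, the inhibitor family members Nfkbiz by 2.45 ± 0.56 and Nfkbie by 1.27 ± 0.25, and 1 of 11 after AMPH, Nfkbie by 1.03 ± 0.25. Nfkbiz differed by 1.72 ± 0.56 after AMPH in blood (adjusted p = 0.0626), and by 1.37 ± 0.50 and 0.91 ± 0.50 after EIH and AMPH in choroid plexus. Nfkbia, the inhibitor that NF-kappaB itself induces, differed by 0.81 ± 0.27 and 0.83 ± 0.27 in blood (adjusted p = 0.0514 and 0.0591). In choroid plexus it differed by 0.91 ± 0.25 and 1.17 ± 0.25 (adjusted p = 0.138 and 0.0625).

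In the prostaglandin list 2 of 16 genes rose in blood after EIH: Pla2g4a, the phospholipase that frees arachidonic acid, by 2.55 ± 0.81, and the prostaglandin receptor gene Ptger2 by 2.50 ± 0.71. After AMPH 1 of 16 rose, the prostaglandin reductase gene Ptgr1 by 1.87 ± 0.46. Ptgs1, the constitutive cyclooxygenase gene, differed by -0.15 ± 0.25 after EIH and -0.29 ± 0.25 after AMPH. The synthase gene Ptges, which acts after Ptgs2, differed by 1.48 ± 0.71 and 1.11 ± 0.71. The receptor gene Ptger4 differed by 0.24 ± 0.56 and 0.03 ± 0.56, and Hpgd, which breaks prostaglandins down, by 0.96 ± 0.68 and -0.06 ± 0.73. In choroid plexus after EIH these genes differed by 0.13 ± 0.35 (Ptgs1), 0.85 ± 0.61 (Ptges), 0.19 ± 0.65 (Ptger4) and 0.46 ± 0.24 (Hpgd).

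In the nitric oxide and arginine list 3 of 12 genes rose in blood after EIH. Ddah2, from the family that clears an inhibitor of nitric oxide synthase, rose by 2.53 ± 0.42, and Ass1 and Asl, which remake arginine from citrulline, by 2.21 ± 0.65 and 0.96 ± 0.21. After AMPH 3 of 12 rose, Ass1 by 2.37 ± 0.65, Ddah2 by 2.03 ± 0.42 and its relative Ddah1 by 1.69 ± 0.42. Nos3, the endothelial synthase gene, differed by 1.37 ± 0.48 after EIH (adjusted p = 0.0667) and 0.98 ± 0.48 after AMPH. Arg1, which competes for arginine, differed by 0.95 ± 0.97 and 1.87 ± 0.97, and Gch1, which makes a cofactor of the synthases, by -0.14 ± 0.30 and -0.33 ± 0.30. In choroid plexus Nos3 differed by 0.61 ± 0.35 and 0.26 ± 0.35.

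In the list of messenger decay factors and brakes 3 of 9 genes rose in blood after EIH and 1 of 9 after AMPH. Zfp36, whose protein destabilises Tnf and other cytokine messengers, rose by 3.27 ± 0.58 after EIH and 3.54 ± 0.58 after AMPH, against differences of 0.48 ± 0.40 and 0.75 ± 0.40 in choroid plexus. The phosphatase gene Dusp1 rose by 1.87 ± 0.42 and the interleukin 10 receptor gene Il10ra by 1.17 ± 0.32 after EIH. Il10, an anti-inflammatory cytokine gene, differed by 0.69 ± 0.32 and 0.54 ± 0.32. At 1 day in blood 0 of 88 pathway genes were called after EIH and 2 of 88 after AMPH (2.27%, close to the 2.08% of all genes), where Nlrp3 rose by 2.16 ± 0.34 and Dusp1 by 2.78 ± 0.42.

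**Figure D3:**
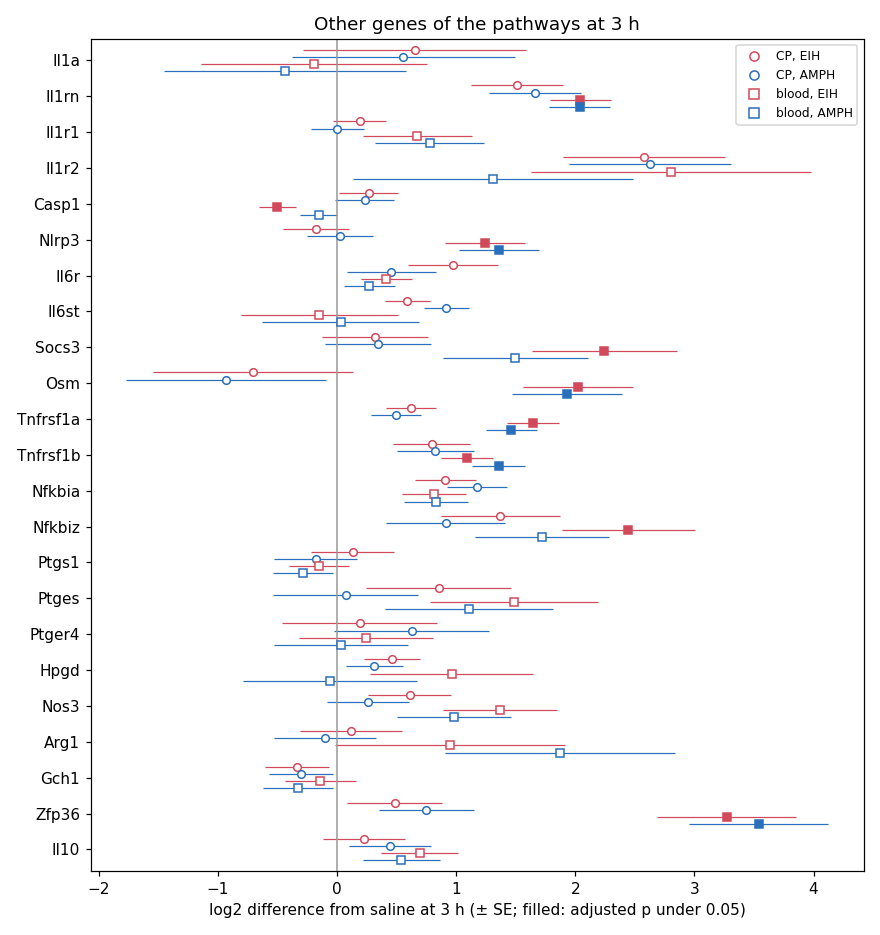
Log2 difference from saline at 3 h (± SE) of 23 pathway genes in choroid plexus (circles) and blood (squares) after EIH (red) and AMPH (blue), filled where the adjusted p was under 0.05. The filled symbols are all squares, among them Il1rn, Nlrp3, Osm, Tnfrsf1a, Tnfrsf1b and Zfp36 after both treatments.

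The effect of treatment differed between the tissues for 1 pathway gene higher and 7 lower of 89 after EIH (8.99% called, against 6.13% of all genes) and 1 higher and 4 lower of 90 after AMPH (5.56%, against 3.15% of all genes). Zfp36 differed by -2.79 ± 0.73 for EIH and -2.79 ± 0.73 for AMPH, choroid plexus minus blood, Ddah2 by -2.84 ± 0.50 and -2.57 ± 0.50, and Il1rap by -2.09 ± 0.54 and -2.07 ± 0.54. Ikbkb, a kinase gene of the NF-kappaB pathway, was the gene on the other side, at 1.00 ± 0.20 and 0.87 ± 0.20. Nlrp3 (-1.42 ± 0.44), Stat3 (-1.22 ± 0.34), Tnfrsf1a (-1.02 ± 0.30) and Asl (-0.96 ± 0.27) were called for EIH, and Ptgr1 (-2.38 ± 0.59) for AMPH. From 3 h to 1 day the EIH effect in blood changed for 2 genes upward and 6 downward of 88 (9.09%, against 9.06% of all genes, so the lists did not stand out in number). These were Il1rn at -1.96 ± 0.36, Stat3 at -1.99 ± 0.40 and Tnfrsf1a at -1.69 ± 0.31. The others were Tnfrsf1b at -1.02 ± 0.31, Asl at -1.41 ± 0.30, Ddah2 at -1.92 ± 0.59, Casp1 at 0.78 ± 0.22 and Tradd at 0.95 ± 0.26. For AMPH 0 of 88 changed.

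Between the 3 h saline groups 15 of 90 pathway genes were higher and 44 lower in choroid plexus than in blood (65.6% called, against 56.2% of all genes, 3166 higher and 2415 lower). Ptgds, a prostaglandin D synthase gene, was at the highest value of the array on all 4 choroid plexus arrays, so its difference of 8.95 ± 0.30 is a lower bound. Of the others, the prostacyclin synthase gene Ptgis differed by 3.97 ± 0.43 and Ptges by 2.66 ± 0.57. Nos3 differed by 2.81 ± 0.30 and Il1r1 by 2.25 ± 0.33. On the other side, Il1r2 differed by -6.30 ± 0.61, Ptgs1 by -6.20 ± 0.26 and Il1rn by -5.20 ± 0.32.

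The genes with the level pattern most like each of the 5 genes were ranked by Pearson r over the arrays of a tissue. This r is a description: the arrays share a normalization, and r holds the differences between groups. Over the 20 choroid plexus pools Il1b was closest to Gadd45b (0.92), Pdlim1 (0.92) and Fgl2 (0.91). Il6 was closest to Cxcl1 (0.93, 19 pools), Rgs2 (0.93) and Ets2 (0.92). Ptgs2 was closest to Sat1 (0.93), Cxcl1 (0.89, 19 pools) and Ddit3 (0.88). The chemokine gene Cxcl1 was among the 3 nearest genes of both Il6 and Ptgs2, whose r with each other was 0.88. Tnf and Nos2 had lower values, at most 0.77 (Efna3) and 0.75 (Ddx4).

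Over the 24 blood rats Il1b was closest to Clec4d (0.98), Ets2 (0.95) and Tcn2 (0.94). Ptgs2 was closest to Ier3 (0.94), Hspe1 (0.94) and Klf6 (0.93). Nos2 was closest to Stat3 (0.96), Rin2 (0.96) and Jun (0.95). Tnf was closest to Adam17 (0.83), whose protein sheds Tnf from cells, Ldha (0.82) and Adipor2 (0.82). Il6 was closest to Zfp612 (0.68, 23 rats).

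**Figure D4:**
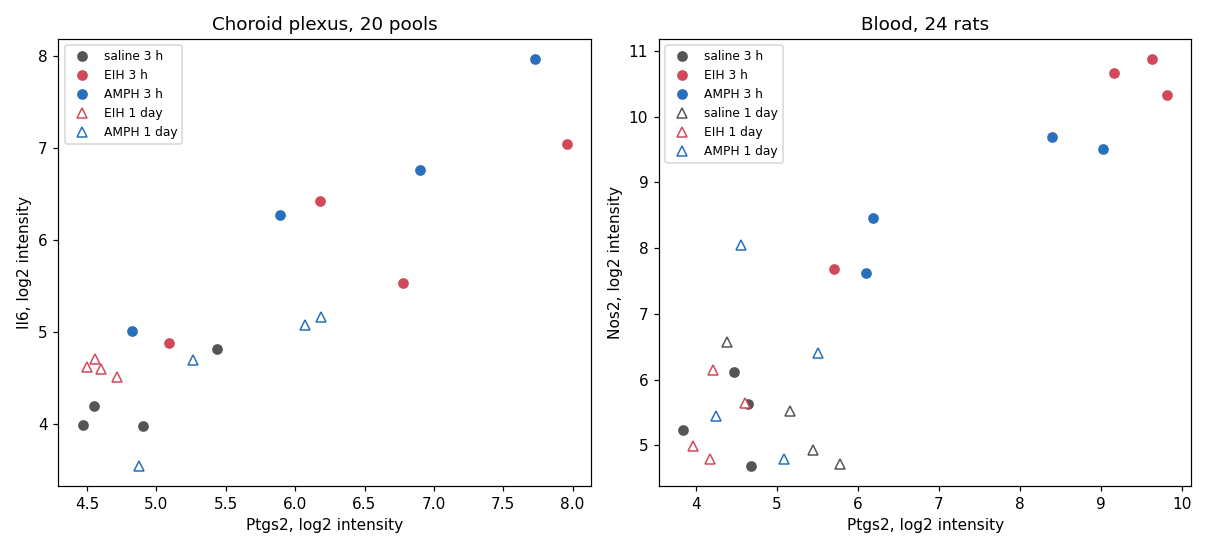
Log2 intensity of Il6 against Ptgs2 in the 20 choroid plexus pools (left) and of Nos2 against Ptgs2 in the 24 blood rats (right), coloured by treatment, with filled circles for 3 h and open triangles for 1 day. In choroid plexus the treated 3 h pools with high Ptgs2 have high Il6, and in blood the 8 treated 3 h rats have Nos2 of at least 7.62, a level that 1 AMPH rat at 1 day (8.05) also reaches.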

How the data were processed

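Expression was measured on 1-colour Agilent arrays of 20 choroid plexus pools and 24 blood samples. The authors deposited linear intensity values per probe, and how they normalized them is not given in the sources used here; per the labels' protocols, total RNA was labelled with Cy3. The number of arrays limits the precision.

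Values were taken as log2 of the deposited intensity (floor 1, with 0 values below it), and blanks as missing (3.05% in choroid plexus, 8.57% in blood). Of 14055 probes, 12926 had 1 symbol, 0 several and 1129 none, and the probe with the highest mean stood for a gene. Groups came from the labels. Differences were tested with limma 3.58.1 (lmFit, contrasts.fit and eBayes, R 4.3.3) on all arrays of a tissue, and tissue comparisons on both 3 h saline groups or all 44 arrays; a gene with under 2 values in a group was not tested. P-values were adjusted over all genes tested, and the scripts were tested on simulated data. Alternatives concerned scaling (equal medians, quantile), the lowest 25% of genes, an intensity trend, array weights and fitting the compared groups alone. Others were averaging a gene's probes, a replicate block of arrays joined by rat numbers, pools that share a rat, and each array left out. Pathway genes are named where a list had at most 4 calls, otherwise from the 4 largest per direction, plus a fixed set of 24 genes (23 measured); between the saline tissues they are given in part. The 5 genes and the lists were chosen with earlier results of these data known. Promoter windows are from RefSeq (GRCr8), which matched 4 of the 5 genes (Nos2 is not among them).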

Additional observations from a re-analysis of the deposited data

Results flagged for a closer look

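Of 55 sets of 4 arrays (5 genes in 11 groups), 3 held an array far from the other 3 by Dixon's criterion, and chance gives about 1 in 20. These were Il1b in blood after AMPH at 1 day, with the highest rat at 14.60, Ptgs2 in blood after EIH at 3 h, with the lowest rat at 5.71, and Nos2 in the latter group, with the same rat lowest at 7.68.

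Effects that differed by a test of the difference itself were the blood EIH effect at 1 day against 3 h, at -1.68 for Il1b, -5.12 for Ptgs2 and -4.51 for Nos2, and the choroid plexus effect against the blood effect of Nos2 at 3 h, at -4.93 for EIH and -3.20 for AMPH.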

How the results depend on the processing

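The calls of Il1b, Ptgs2 and Nos2 in blood at 3 h after EIH held under all alternatives run, as did those of Il1b and Nos2 after AMPH. Counts of the 5 genes called moved as follows. With array weights 3 were called in choroid plexus after EIH and 3 after AMPH at 3 h, 3 for EIH by time, and 2 for the tissue difference for AMPH. With an intensity trend and robust spread 1 was called in blood after AMPH at 1 day. Without pools sharing a rat 0 were called for the tissue difference for AMPH. Between the saline tissues the count was 2. It was 3, with Nos2 added, under quantile normalization, array weights or with pools sharing a rat left out. Without the lowest 25% of genes it was 1, since only Il1b of the 5 genes stayed in that test. The Tnf call held wherever Tnf was tested. Leaving out 1 array at a time gave 0 to 1 in choroid plexus after EIH and 0 to 2 after AMPH, 2 to 3 in blood after AMPH at 3 h and between the saline tissues, 0 to 1 in blood after AMPH at 1 day and for the blood AMPH effect by time, 1 to 2 for the tissue difference for EIH and 0 to 2 for that for AMPH. The choice to leave the choroid plexus AMPH 1 day pool and the blood EIH rat lowest for Ptgs2 out of each fit was made after seeing the data.

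The replicate block joined arrays that share a rat number, within or between tissues (correlation 0.0831 for saline and 0.167 over all 44 arrays). With it Nos2 gave -4.93 and -3.08 for the tissue differences, and no call among the 5 genes changed.

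All signs that turned were of differences that were not called. With array weights the values were Il1b 0.075 in choroid plexus AMPH against EIH at 3 h, Ptgs2 0.030 in choroid plexus AMPH against EIH at 3 h, Nos2 0.021 in choroid plexus EIH at 1 day against saline, Tnf -0.030 in choroid plexus AMPH at 1 day against saline, Il6 -0.28 in choroid plexus AMPH against EIH at 1 day, Tnf -0.22 in choroid plexus AMPH against EIH at 1 day, Il6 -0.17 in blood AMPH against EIH at 3 h, Il1b 0.18 in blood EIH at 1 day, Nos2 -0.0088 in blood AMPH at 1 day, Tnf -0.092 in the tissue difference for AMPH. With pools sharing a rat left out the values were Nos2 0.040 in choroid plexus AMPH at 1 day against saline, Il1b -0.048 in the tissue difference for AMPH. With equal medians the values were Il6 -0.00081 in choroid plexus AMPH against EIH at 1 day, Il6 -0.024 in blood AMPH against EIH at 3 h. With quantile normalization the values were Il6 -0.070 in choroid plexus AMPH against EIH at 1 day, Il6 -0.058 in blood AMPH against EIH at 3 h, Il6 0.043 in the blood AMPH effect by time. With 1 array left out the ranges that cross 0 were Il1b -0.26 to 0.29 in choroid plexus AMPH against EIH at 3 h; Ptgs2 -0.64 to 0.34 in choroid plexus AMPH against EIH at 3 h; Nos2 -0.27 to 0.047 in choroid plexus EIH at 1 day against saline; Tnf -0.17 to 0.38 in choroid plexus AMPH against EIH at 1 day; Il6 -0.17 to 0.37 in choroid plexus AMPH against EIH at 1 day; Tnf -0.14 to 0.12 in choroid plexus EIH by time; Il1b -0.60 to 0.23 in choroid plexus AMPH by time; Tnf -0.46 to 0.090 in choroid plexus AMPH by time; Il6 -0.29 to 0.35 in blood AMPH against EIH at 3 h; Il1b -0.19 to 0.12 in blood EIH at 1 day; Nos2 -0.29 to 0.34 in blood EIH at 1 day; Il6 -0.13 to 0.30 in blood AMPH against EIH at 1 day; Il6 -0.42 to 0.23 in the blood EIH effect by time; Tnf -0.28 to 0.22 in the blood EIH effect by time; Il6 -0.27 to 0.28 in the blood AMPH effect by time; Il1b -0.31 to 0.13 in the tissue difference for EIH; Tnf -0.18 to 0.33 in the tissue difference for AMPH. The cause was not tested. Of 675 member differences under other settings 643 kept sign and side, and of 970 with an array left out 899 did.

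Counts of all genes called, with their range over all settings and arrays left out, were 35 (0 to 967) for choroid plexus EIH at 3 h, 16 (0 to 1214) for AMPH at 3 h, 1 (0 to 2) for AMPH against EIH at 3 h, 0 (0 to 122) for EIH at 1 day against saline, 3 (0 to 14) for AMPH at 1 day against saline, 0 (0 to 3) for AMPH against EIH at 1 day, 0 (0 to 1992) for EIH by time, 1 (0 to 109) for AMPH by time. They were 1250 (836 to 1809) for blood EIH at 3 h, 856 (448 to 1463) for AMPH at 3 h, 4 (1 to 18) for AMPH against EIH at 3 h, 8 (0 to 37) for EIH at 1 day, 204 (0 to 404) for AMPH at 1 day, 0 (0 to 63) for AMPH against EIH at 1 day, 859 (457 to 1451) for the EIH effect by time, 36 (22 to 133) for the AMPH effect by time. They were 602 (298 to 1305) for the tissue difference for EIH and 308 (130 to 1084) for the tissue difference for AMPH. The highest counts in choroid plexus at 3 h against saline came with array weights. Testing each probe alone was not applicable, since each gene has 1 probe, and without pools sharing a rat no value for choroid plexus EIH at 1 day could be had. Levels near the bottom of the scale limit the differences. In choroid plexus these are Nos2 and Tnf, Il6 in saline and 1 day pools, and Ptgs2 in EIH 1 day pools. In blood they are Il6 and Ptgs2 in some rats, and Tnf in some 1 day saline rats. Blood Nos2 was low in some saline rats too, though in no rat below the 10th percentile of its array.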
